A study of Mus musculus with 4 samples.

Results

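The EphB receptors and their ephrin-B ligands were followed through the development of the mouse pontine nucleus. The group was defined by name as the receptor genes Ephb1, Ephb2, Ephb3, Ephb4 and Ephb6 and the ligand genes Efnb1, Efnb2 and Efnb3, 8 genes in all. For 7 of the 8 the platform's gene table listed a probe set with a single gene symbol, out of 19938 genes so named. The table used here listed no probe set for Ephb2, by symbol, synonym or gene identifier, and Ephb2 was not analysed here. Where a gene had several probe sets, the one with the largest average signal on the 4 arrays was read. Of the 7 genes, 6 reached 8.41 on the log2 scale on at least 1 array, as did 10901 of all genes. This level served as the filter on low values, and is the median over single-symbol probe sets and arrays. Ephb4 stayed under it on all 4 arrays.

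Tissue was dissected from mice of the outbred ICR background at embryonic day 17.5 (E17.5) and at postnatal days 1, 5 and 14 (P1, P5 and P14). RNA was pooled from 27, 16, 13 and 12 mice in that order of age, and each pool was hybridised to 1 Affymetrix array, so no age had a replicate. No test, standard error or p-value could be had. The only error estimate came from genes read by several probe sets. Its standard deviation (SD) for a difference between 2 arrays, taken over 645 genes, lay between 0.10 and 0.18 on the log2 scale. This SD covers only the disagreement between probe sets of the same gene on the same 2 arrays. Error of RNA preparation, labelling or hybridisation that a gene's probe sets share does not enter it. Variation from one pool of mice to another could not be measured.

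EphB receptors are transmembrane tyrosine kinases, and ephrin-Bs are transmembrane proteins on the neighbouring cell that bind them. On contact, the receptor signals forward into its own cell and the ephrin-B tail signals in reverse into the other. The pair is known for repelling growing axons, for keeping cell populations of the hindbrain apart, for building excitatory synapses and for separating arteries from veins.

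The P5-labelled and P14-labelled arrays were out of step with their labelled ages. Across the genes past the filter, the E17.5 array correlated with P1 at a Pearson's r of 0.968, with the P14-labelled array at 0.909 and with the P5-labelled array at 0.754. The 9 myelin markers measured averaged 7.50 at E17.5, 7.88 at P1, 12.44 for the P5-labelled array and 8.82 for the P14-labelled array. The labels are kept as deposited. Every direction given for these 2 arrays rests on them, and the difference between P1 and E17.5 is the one comparison that uses neither. Of 11 markers listed for pontine nucleus neurons, 10 were measured and 9 passed the filter. Barhl1, a homeobox factor of rhombic lip neurons, stood at 12.23, 11.79, 10.83 and 11.61, and Slc17a6, a vesicular glutamate transporter, stood at 11.44, 11.17, 11.57 and 11.49 in order of labelled age. Slc17a7, a second such transporter, stood at 8.16, 9.38, 12.90 and 11.36, under the level filter at E17.5. The factor Pou4f1 was at 6.74 or less on each array. On the P5-labelled array 5 of the 9 were at least 2-fold lower than at E17.5, against 5.50% of all genes past the filter. In the same pair 1 of the 9, Slc17a7, was at least 2-fold higher (4.74), against 11.3% of all genes. The median difference was −1.17 over the 9, beside −0.02 over all genes past the filter. Pax6 stood at 10.01 on the P5-labelled array and at 11.52 at E17.5.

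Of the ligands, Efnb1 and Efnb2 were highest at E17.5 and lowest on the P5-labelled array, and Efnb3 varied little. Of the receptors, Ephb3 was the one that was higher on every postnatal array than at E17.5 by at least 1.5-fold. Ephb1 was highest at P1, Ephb6 was lowest on the P5-labelled array, and Ephb4 stayed low. Over the 4 arrays 3 genes (Ephb3, Efnb1 and Efnb2) spanned at least 2-fold, out of the 6 past the filter. Of all genes past the filter, 19.4% did. Efnb2 fell just short of it with each array centred on its median, and a second probe set of Ephb1 passed it.

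**Figure D1:**
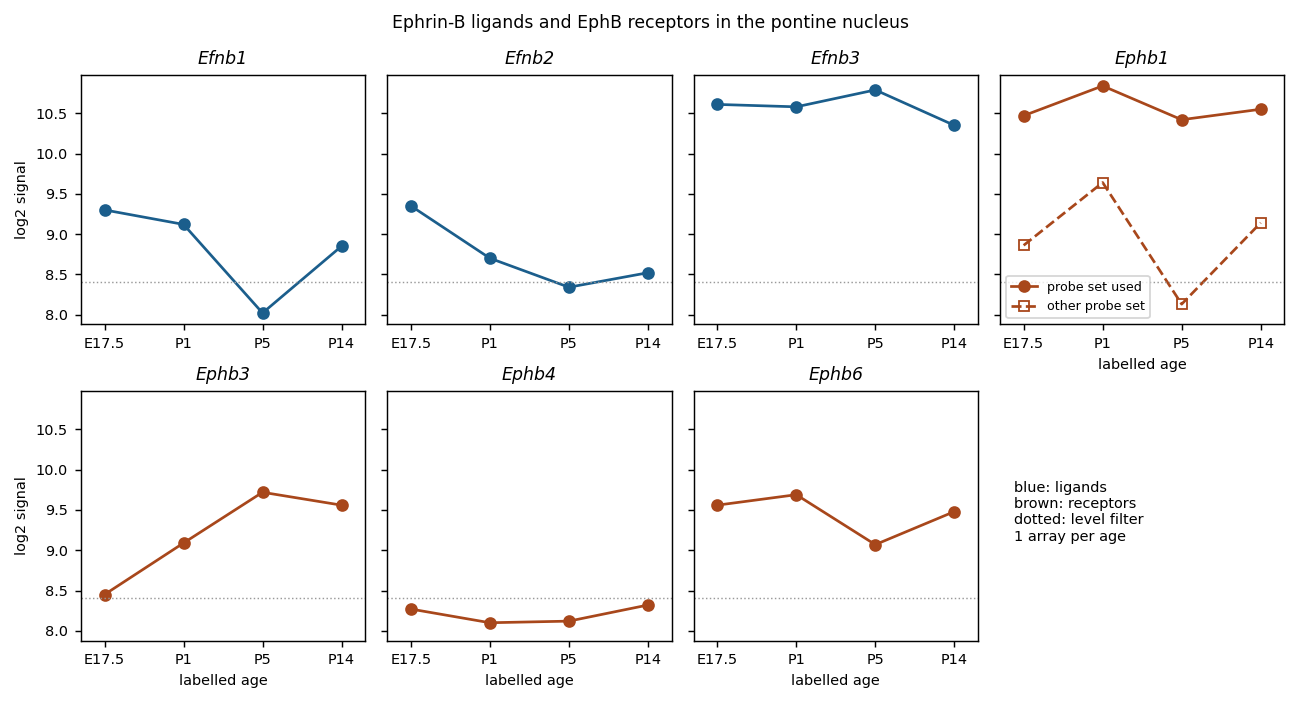
Log2 signal (vertical axis) of the 3 ephrin-B ligands (blue) and the 4 measured EphB receptors (brown) on the 4 arrays (horizontal axis, labelled age), with 1 point per array and no error bars because no age had a replicate. The dotted line is the level filter at 8.41, and the open squares are the second probe set of Ephb1; levels of different probe sets are not comparable with each other. Ephb3 lies lowest at E17.5 (8.45), whereas Efnb1 (9.30) and Efnb2 (9.35) lie highest there.

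Efnb1, an X-linked ligand whose loss causes craniofrontonasal syndrome in humans, had a log2 signal of 9.30 at E17.5, 9.12 at P1, 8.02 for the P5-labelled array and 8.85 for the P14-labelled array. The P5-labelled array stood apart as the low one. Efnb1 on the P5-labelled array was 2.14-fold lower than at P1 (difference −1.10) and 2.43-fold lower than at E17.5 (−1.28). The first difference was 6.25 times the probe set SD. The value of 8.02 lies under the level filter, so the sizes are inexact. On the P14-labelled array Efnb1 was 0.83 higher than on the P5-labelled array and 0.45 lower than at E17.5. P1 and E17.5, neighbours in the order of its levels, differed by −0.18, or 1.53 times the probe set SD.

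Efnb2, the ligand that marks arteries and is bound by EphB4 on veins, stood at 9.35 at E17.5, 8.70 at P1, 8.34 for the P5-labelled array and 8.52 for the P14-labelled array. The embryonic value was the high one, and the 3 postnatal values lay close together. Efnb2 was 1.57-fold lower at P1 than at E17.5 (−0.65, or 5.53 times the probe set SD), 2.01-fold lower on the P5-labelled array (−1.01) and 1.78-fold lower on the P14-labelled array (−0.83). With each array centred on its median the difference between the P5-labelled array and E17.5 was −0.99, just short of 2-fold. The value of 8.34 also lies under the level filter. The 3 postnatal values lay within 0.36 of each other, and the P14-labelled array differed from P1 by −0.18 and from the P5-labelled array by 0.18, the second of which is 1.28 times the probe set SD.

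Efnb3, which in mice keeps corticospinal axons from recrossing the spinal midline, had levels of 10.61, 10.58, 10.79 and 10.35 in order of labelled age. The P5-labelled array was its highest and the P14-labelled array its lowest, with a difference of −0.44 between P14 and P5. At P1 it lay 0.03 under its E17.5 value, or 0.26 times the probe set SD. Efnb3 was thus the ligand with the smallest range (1.36-fold), and it did not share the low value of Efnb1 and Efnb2 on the P5-labelled array.

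Ephb3, a receptor that with EphB2 guides axons of the corpus callosum in mice, had levels of 8.45 at E17.5, 9.09 at P1, 9.72 for the P5-labelled array and 9.56 for the P14-labelled array. All 3 postnatal values lay above the embryonic one. Ephb3 was 1.56-fold higher at P1 than at E17.5 (0.64, or 5.44 times the probe set SD), 2.41-fold higher on the P5-labelled array (1.27) and 2.16-fold higher on the P14-labelled array (1.11). The P14-labelled array lay 0.47 above P1. It lay 0.16 under the P5-labelled array, which is 1.14 times the probe set SD. The embryonic value of 8.45 is close to the level filter.

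Ephb1, which in mice turns retinal axons back at the optic chiasm on meeting ephrin-B2, was the one gene of the group with 2 probe sets. The one used had levels of 10.47 at E17.5, 10.84 at P1, 10.42 for the P5-labelled array and 10.55 for the P14-labelled array. The other had levels of 8.86, 9.64, 8.13 and 9.14 in the same order. Both were highest at P1 and lowest on the P5-labelled array, and they differed in size. By the one used, the P5-labelled array lay only 0.05 under E17.5, or 0.27 times the probe set SD. For the P5-labelled array against P1 the differences were −0.42 and −1.51, a gap of 1.09. The probe set SD for this pair, 0.18, is that of a single probe set's difference, and a gap between 2 such differences varies more. For the P14-labelled array against P5 they were 0.13 and 1.01. At P1 against E17.5 they were 0.37 and 0.78. By its other probe set Ephb1 would therefore count as at least 2-fold lower on the P5-labelled array than at P1. The table ties that probe set to a single cDNA, and which transcripts it reads was not tested.

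Ephb6, whose kinase domain lacks catalytic activity, stood at 9.56 at E17.5, 9.69 at P1, 9.07 for the P5-labelled array and 9.48 for the P14-labelled array. The P5-labelled array was the low one, 0.62 under P1 and 0.49 under E17.5, and the other 3 values lay within 0.21 of each other. Ephb4, the venous receptor for ephrin-B2, had levels of 8.27, 8.10, 8.12 and 8.32, all under the level filter, and spanned 1.16-fold. No order can be read from values so close to each other.

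Set side by side by pairs of arrays, none of the 6 genes past the filter was at least 2-fold apart between P1 and E17.5, where 1.10% of all genes past the filter were. Ephb4, which did not pass, was not 2-fold apart in any pair. At 1.5-fold, Ephb3 (higher) and Efnb2 (lower) were apart, 2 of 6, against 5.92% of all genes. Between the P5-labelled array and P1 the count was 1 of 6, Efnb1, against 12.9% of all genes. Between the P5-labelled array and E17.5 it was 3 of 6, with Ephb3 higher and Efnb1 and Efnb2 lower, against 16.8%, and 2 of 6 with median centring, without Efnb2. Between the P14-labelled array and E17.5 it was 1 of 6, Ephb3, against 5.74%. No member was 2-fold apart for P14 against P1 (1.47% of all genes) or P14 against P5 (6.66%). The median difference of the 6 genes was 0.05 for P1 against E17.5, beside −0.06 over all genes past the filter. It was −0.39 with P5 set against P1, beside 0.05 over all genes, and −0.27 with P5 set against E17.5, beside −0.02. With Ephb4 included the 3 medians were −0.03, −0.36 and −0.15, so that the first changed sign. Pairs that share an array are not independent of each other.

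**Figure D2:**
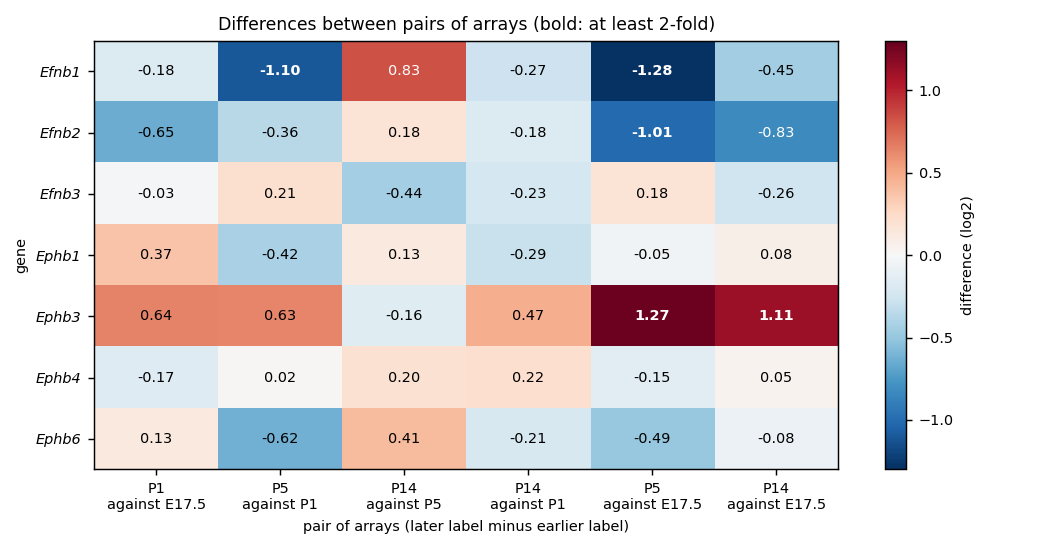
Log2 difference (colour and printed value, later label minus earlier label) of each gene (rows) between each pair of arrays (columns), with 1 array per age. Bold values are at least 2-fold: −1.10 and −1.28 for Efnb1, −1.01 for Efnb2, and 1.27 and 1.11 for Ephb3.

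In 5 of the 6 genes past the filter (83.3%) the P14-labelled array fell between P1 and the P5-labelled array, with Efnb3 outside that interval. Over all genes past the filter this was so in 63.0%, and over those with a 2-fold range in 86.6%. Ephb4, which did not pass, also lay outside. For Ephb3, Efnb1, Efnb2, Ephb1 and Ephb6, ranking the postnatal arrays as P1, P14, P5 thus gave a one-way series of levels, while ranking them by label did not. The step between the P14-labelled and P5-labelled arrays was small for some of them. It was 0.93 times the probe set SD for Ephb1, 1.14 for Ephb3 and 1.28 for Efnb2, against 2.92 for Ephb6 and 5.91 for Efnb1.

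The genes closest in profile to each member with a 2-fold range were found by the Euclidean distance between the 4 values centred on each gene's mean, among 2120 genes with such a range. For Ephb3 they were Arhgap26, a GTPase-activating protein (distance 0.07), Mmd2 (0.07) and Plce1, a phospholipase C (0.09). For Efnb1 they were Bcl9l, a coactivator of beta-catenin (0.0087), Camsap3, a protein of microtubule minus ends (0.014), and Marchf4, a ubiquitin ligase (0.020). Bcl9l stood at 10.87, 10.69, 9.59 and 10.43 in order of labelled age, which follows the course of Efnb1 on its own probe set's scale. For Efnb2 they were the microRNA gene Mir331 (0.0087), the exonuclease Exo5 (0.07) and the phosphatase Ubash3b (0.09). With 4 arrays such likeness is a description.

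The promoter windows of the 3 genes with a 2-fold range are printed here because these members differed most between arrays by the probe sets used. The second probe set of Ephb1, which was not used, had a larger range (1.51 on the log2 scale). They are RefSeq sequences of build GRCm38.p6, running 5′ to 3′ on the gene's strand from 250 bases before the start to 50 after it. A window was found for 6 of the 7 measured genes. Capitals mark the GC box GGGCGG. Its other-strand form CCGCCC was searched too, with overlaps allowed.
Ephb3 at chr16:21204545-21204844, plus strand: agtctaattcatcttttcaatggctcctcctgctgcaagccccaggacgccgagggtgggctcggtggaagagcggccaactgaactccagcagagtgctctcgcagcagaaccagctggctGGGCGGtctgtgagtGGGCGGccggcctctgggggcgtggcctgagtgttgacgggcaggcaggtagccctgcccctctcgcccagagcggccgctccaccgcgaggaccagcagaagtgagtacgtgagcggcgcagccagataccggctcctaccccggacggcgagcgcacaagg
Efnb1 at chrX:99135811-99136110, plus strand: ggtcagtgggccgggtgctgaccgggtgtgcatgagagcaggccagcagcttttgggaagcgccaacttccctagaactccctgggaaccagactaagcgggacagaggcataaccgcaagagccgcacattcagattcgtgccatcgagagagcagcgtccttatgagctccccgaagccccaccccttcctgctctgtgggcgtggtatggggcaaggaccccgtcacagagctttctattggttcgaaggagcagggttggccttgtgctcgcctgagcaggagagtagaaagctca
Efnb2 at chr8:8661193-8661492, minus strand: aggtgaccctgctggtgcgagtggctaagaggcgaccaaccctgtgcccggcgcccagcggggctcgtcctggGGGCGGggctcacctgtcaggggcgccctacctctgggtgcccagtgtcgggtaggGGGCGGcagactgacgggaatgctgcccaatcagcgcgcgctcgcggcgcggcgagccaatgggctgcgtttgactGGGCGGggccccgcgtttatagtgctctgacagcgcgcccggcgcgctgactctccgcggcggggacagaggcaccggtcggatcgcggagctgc
The window of Ephb3 held 2 GC boxes, that of Efnb1 held 0 and that of Efnb2 held 3, while 35.7% of 32851 windows of the same length held at least 1. GC content was 66.7% for Ephb3, 59.7% for Efnb1 and 72.3% for Efnb2, against a median of 52.7% over all windows. The counts of CG dinucleotides were 23, 14 and 35, against a median of 7. The windows of Ephb6, Ephb4 and Ephb1, members without a 2-fold range by the probe sets used, held 5, 4 and 0 GC boxes. Their GC content was 76.3%, 64.7% and 55.7%, and their CG counts were 34, 14 and 14. High GC content was thus also found in members without a 2-fold range. All motifs were searched on both strands. The letters TATAAA of the TATA box were not found on the gene's own strand in any of the 3 printed windows. Efnb2 held them once on the other strand, as TTTATA, and 13.6% of all windows held either form. None of the 3 held GTGGGAA, a form of the RBPJ motif of Notch signalling (6.38% of windows), or the TCF motif forms CTTTGAA (5.14%) and CTTTGAT (3.73%). Efnb2 is a known Notch target in endothelium and Ephb3 a known TCF target in the gut. A letter match describes these windows and identifies no binding site.

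Markers of other cells moved between the same arrays, which hold bulk tissue, so that fewer cells of a type and less RNA per cell cannot be told apart. The 8 young neuron markers averaged 12.17 at E17.5, 11.43 at P1, 9.02 for the P5-labelled array and 10.65 for the P14-labelled array. They were thus lowest on the array where Efnb1, Efnb2, Ephb1 and Ephb6 were lowest, as were the 10 pontine neuron markers on average (10.98, 10.76, 10.61 and 10.80 in order of labelled age). For Ephb1 and Efnb2 the margin was small. By the probe set used, Ephb1 lay 0.05 under its E17.5 value there, or 0.27 times the probe set SD. Efnb2 lay 0.18 under its value on the P14-labelled array, or 1.28 times that SD. The 7 general neuron markers averaged 12.28, 12.23, 12.72 and 12.60, and this mean was highest on the P5-labelled array. Not every marker had this order. Tubb3 (12.91, 12.83, 11.62 and 12.54) and Map2 (12.99, 13.11, 12.72 and 13.11) were lowest there. Against P1, 3 of the 7 were at least 2-fold higher on the P5-labelled array and 1, Tubb3, was lower (8.96% and 3.94% of all genes past the filter). Of the 8 young neuron markers, 6 were at least 2-fold lower on the P5-labelled array than at P1, against 3.94% of all genes past the filter. Cd24a, among them, stood at 9.19 against 13.41. The marker lists were written with earlier results of these data known. Nhlh1 was the lowest of the 8 on the 3 postnatal arrays, from 5.75 to 6.23. Each of these values lies under the lower quartile of all probe sets on its array and under the level filter.

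The 8 astrocyte markers averaged 9.75, 10.89, 12.03 and 11.66 in order of labelled age, lowest and highest on the same arrays as Ephb3. Gfap, the intermediate filament of astrocytes, stood at 7.19, 9.89, 12.09 and 11.91. Not every marker had this order. Aldh1l1 stood at 9.57, 10.37, 10.27 and 10.46, and Aqp4 and Slc1a3 were also highest on the P14-labelled array, by 0.01 over the P5-labelled one. Oligodendrocyte precursor markers (6 of 6 measured) averaged 9.30, 10.02, 11.00 and 10.52, and microglial markers (7 of 7) averaged 7.71, 8.24, 8.95 and 8.59. The means of these lists share the order of the 4 arrays with Ephb3, while single markers can differ. The mean of the myelin list (7.50, 7.88, 12.44 and 8.82) has the same order. Such an order is common: the P14-labelled array lay between P1 and the P5-labelled array in 86.6% of genes with a 2-fold range. The step of Ephb3 between these 2 labelled arrays, P14 and P5, was only 0.16, or 1.14 times the probe set SD. Pdgfra, a precursor marker, was at 10.70 on the P5-labelled array and 10.94 on the P14-labelled array. The part of these cell types in the levels of Ephb3, Efnb1 and Efnb2 was not tested.

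For Efnb2 and Ephb4, which are also vascular genes, endothelial markers are set beside them. The 9 general endothelial markers averaged 9.04 at E17.5, 8.95 at P1, 9.41 for the P5-labelled array and 9.23 for the P14-labelled array. All 9 passed the filter, and none was 2-fold apart between any pair of arrays. Where Efnb2 was 0.65 lower at P1 than at E17.5, the mean of these 9 differed by −0.09, and where Efnb2 was 1.01 lower on the P5-labelled array than at E17.5, it differed by 0.38. Of the 7 arterial markers only 2 passed the filter, Hey1 and Hey2. Hey1 stood at 9.87, 9.95, 10.44 and 10.06 in order of labelled age, and Hey2 at 8.84, 9.40, 9.06 and 9.31. The other 5 lay under the filter on all arrays, so arterial cells could not be followed by this list. The 4 venous markers, 3 of which passed, averaged 8.78, 8.70, 8.75 and 9.00. The part of vessels in the levels of Efnb2 and Ephb4 was not tested.

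**Figure D3:**
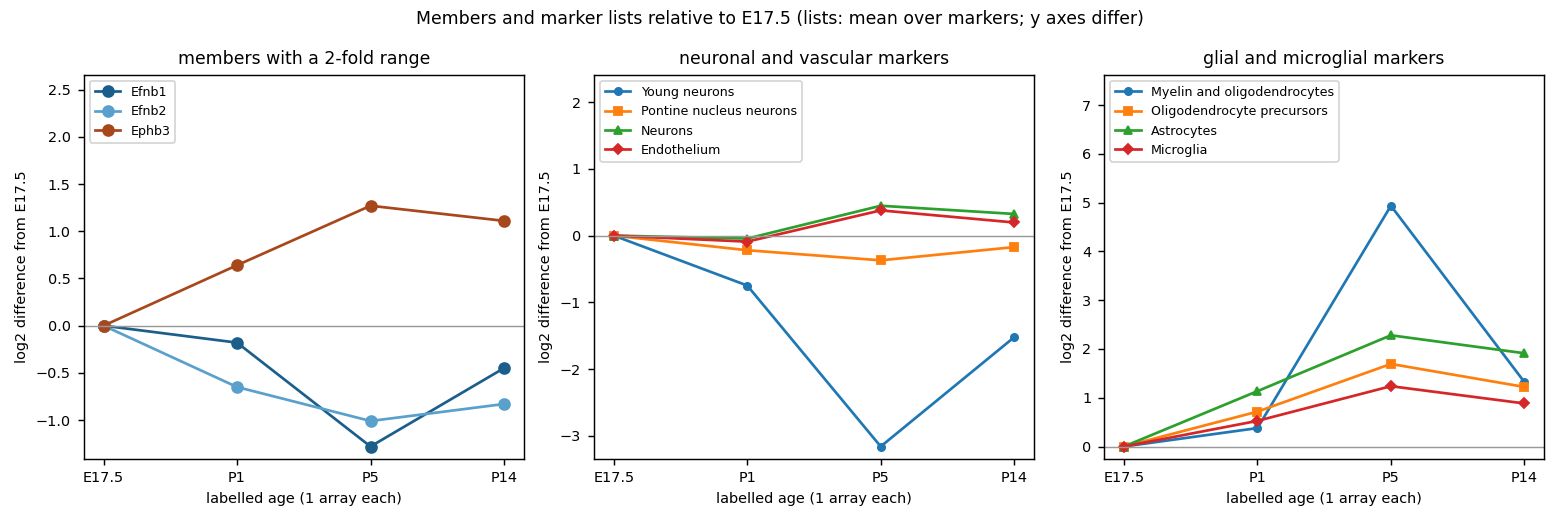
Log2 difference from E17.5 (vertical axes, scales differ) on the 4 arrays (horizontal axis, labelled age) for the 3 members with a 2-fold range (left), and for the mean over the markers of neurons and vessels (middle) and of glia and microglia (right), with 1 array per age and no error bars. On the P5-labelled array Ephb3 lies at 1.27 and Efnb1 at −1.28, the young neuron list at −3.16 and the myelin list at 4.94.

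Of the genes that carry EphB and ephrin-B signals, those at least 2-fold apart were so on the P5-labelled array, and Grb7 also on the P14-labelled array against E17.5. The listed partners were cytoplasmic partners of the receptors, partners of the ephrin-B tail, cleaving proteases, and the cross-binding Epha4 and Efna5. Of 63 listed names, 58 had a value and 53 passed the filter. Afdn was listed also under its older symbol Mllt4, which counts among the names without a value. None of the 53 was 2-fold apart between P1 and E17.5, with a median difference of −0.05. On the P5-labelled array against E17.5, 8 were 2-fold or more apart, or 15.1%, a share near the 16.8% of all genes past the filter. Of these, 3 were higher (5.66%, against 11.3% of all genes) and 5 lower (9.43%, against 5.50%). Against P1, 3 were higher and 1 lower (8.96% and 3.94% of all genes).

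The 3 higher partners all belonged to the cytoplasmic partners of the receptors. Sdc2, a syndecan that EphB2 phosphorylates during spine formation, had levels of 7.72, 8.19, 9.51 and 8.67 in order of labelled age. Grb7, an adaptor that binds activated EphB1, had levels of 7.57, 7.92, 9.10 and 8.64 and was also 2-fold higher on the P14-labelled array than at E17.5 (1.07). Rras, a small GTPase that EphB2 phosphorylates, had levels of 9.94, 9.97, 11.18 and 10.36. All of these were highest on the P5-labelled array, and the early values of Sdc2 and Grb7 lay under the level filter, which makes their sizes inexact.

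The partners at least 2-fold lower on the P5-labelled array than at E17.5 came from both sides. They were 3 cytoplasmic partners of the receptors (Nck2, Cblb and Vav2), 2 partners of the ephrin-B tail (Nck2, which is on both lists, and Grip1) and Efna5, a ligand of the other class. Nck2, the adaptor that binds the phosphorylated ephrin-B tail, stood at 9.94, 9.49, 8.61 and 9.00 in order of labelled age. Grip1, a PDZ scaffold for ephrin-B and EphB tails, stood at 10.15, 10.30, 9.11 and 10.10 and was also the one partner 2-fold lower than at P1 (−1.19). Efna5, an ephrin-A that also binds EphB2, stood at 11.01, 10.35, 9.71 and 10.40. The others were the ubiquitin ligase Cblb (−1.18) and the guanine nucleotide exchange factor Vav2 (−1.05). Epha4, an EphA receptor that also binds ephrin-Bs, lay within 0.31 over the 4 arrays, at 10.50, 10.78, 10.47 and 10.50. None of the 8 proteases past the filter was 2-fold apart between any pair of arrays; Adam10, which sheds ephrins, stood at 10.27, 9.92, 9.83 and 9.76.

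**Figure D4:**
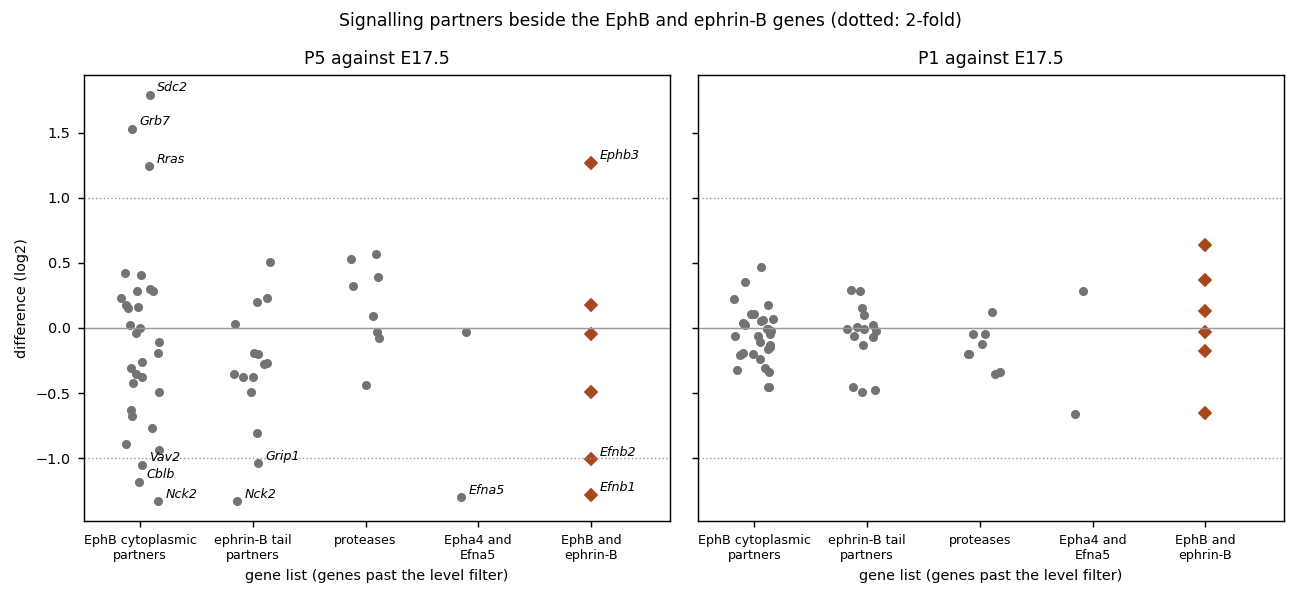
Log2 difference (vertical axis) of the signalling partners past the level filter (grey points, 1 per gene, grouped by list on the horizontal axis; spread sideways for visibility, Nck2, Fyn and Src being on 2 lists) and of the 6 EphB and ephrin-B genes past it (brown diamonds), for the P5-labelled array against E17.5 (left) and P1 against E17.5 (right). On the left 3 partners lie above and 5 below the dotted 2-fold lines, and on the right none does.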

How the data were processed

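RNA of the pontine nucleus was measured on 4 Affymetrix arrays, 1 pooled sample per age. Total RNA was purified with Trizol and a column, converted to sense-strand cDNA and labelled with biotin, per the labels' protocols. The deposited values are log2 signals per probe set that the authors made with Affymetrix Expression Console, per the submitters' processing notes; for version, summary method and normalization the sources used here say nothing. That the scale is log2 follows from their range (1.84 to 14.72 over 35556 probe sets). The array medians lay between 7.89 and 7.94. The values were not rescaled.

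Probe sets were named by the platform's gene table: 21789 carried 1 symbol, 1621 several, and 12146 were not named by it. Gene identifiers were found for 21698 in a RefSeq table of GRCm38.p6, and no symbol needed an update. The number of arrays limits the precision. Differences were taken per gene and counted at 2-fold, in 6 pairs of arrays, with Python 3.11.15 and pandas 2.3.3; counting and the profile distance were tested on simulated data. The members, lists and alternatives were chosen with earlier results of these data known. All members were to be named, with up to 3 partners or markers of each list in each direction, and the 3 closest profiles per member with a 2-fold range.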

Additional observations from a re-analysis of the deposited data

How the results depend on the processing

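The counts of genes at least 2-fold apart and of EphB and ephrin-B genes among them were recomputed with the mean of all probe sets of a gene, without the level filter and with one at the 60th percentile, after quantile normalization, with each array centred on its median, and with probe sets of several symbols. A further setting, chosen after seeing the data, took the probe set and the filter from the 2 arrays compared alone. In these settings all 84 counts stayed within 1.5 times the reported ones. The count of members for the P5-labelled array against E17.5 was 2 and not 3 with median centring, where Efnb2 differed by −0.99. At a 1.5-fold threshold the counts of all genes were 645 for P1 against E17.5, 3328 for P5 against P1, 2142 for P14 against P5, 637 for P14 against P1, 3848 for P5 against E17.5 and 1988 for P14 against E17.5. Those of the members were 2, 3 and 1 for the first 3 of these pairs in the same order, and 2 for P14 against E17.5. Averaging both probe sets of Ephb1 gave −0.965 for P5 against P1, 0.575 for P1 against E17.5 and 0.57 for P14 against P5. Of the 210 recomputed member differences, 5 moved by more than the probe set SD, all of them of Ephb1, and no value past 2-fold changed sign. Many of these outcomes were fixed in advance. The members other than Ephb1 had 1 probe set each, so a change of probe set could not alter their values. Median centring shifts all genes alike, by at most 0.05 for a pair of arrays, which is under the smallest probe set SD of 0.10. No paired analysis was possible because each age had 1 array. Signal over background was not given in the files, which limits what can be said of Ephb4 and of the low values of Efnb1 and Efnb2.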
